A study of Mus musculus with 6 samples.

Results

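The collagen gene family was examined in bulk RNA-seq libraries of PDVC57, a long-established mouse skin carcinoma line. Members were all genes of the count table whose symbol is Col, a number, the letter a and a number, which gave 44 of 55385 mouse genes, and they were sorted into fibrillar, basement membrane, collagen VI, network, transmembrane and other types. The study compared 3 libraries whose genotype is labelled Sox2 KO, a disruption of Sox2, with 3 labelled Sox2 overexpression. Sox2 is a transcription factor of stem cells, and the series asks what it switches on in tumour stem cells that bears on neutrophils. Per the design text, carcinoma cells with little or much Sox2 came out of grafted tumours, whereas the sample labels give only the line and the genotype. The host strain and age, the way the cells were purified, the promoter of the overexpression construct and whether a group is 1 clone are not given in the sources used here. There is no library of unmodified cells, so a difference cannot be assigned to the loss or to the gain of Sox2. Nothing states that replicates came from separate tumours or cultures, so p-values measure the spread between these libraries, which may be technical.

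Collagens are secreted or membrane-bound proteins of 3 chains wound into a triple helix, and each chain carries a repeat in which glycine recurs at a fixed step. Fibrillar collagens I, III and V form the fibres of dermis and tumour stroma and are made mainly by fibroblasts. Collagen IV builds the sheet of the basement membrane under epithelia and around vessels, collagen VI forms beaded filaments close to that sheet, and collagens VII and XVII tie basal keratinocytes to the matrix beneath them. In squamous carcinoma, keratinocyte-type and stroma-type collagens are both measured when a sample holds both kinds of cell.

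The glycine repeat can be read in the coding sequences of GENCODE M21 (GRCm38), where each triplet of codons opens with GGN. A run was counted as 3 or more such triplets in a row. The 11 fibrillar genes had a longest unbroken run of 216 to 344 triplets, with a median of 338, and between 21 and 33 coding exons of exactly 54 bases. The 6 collagen IV genes had 23 to 27 shorter runs, the longest of them 39 to 66 triplets, and 1 to 3 exons of 54 bases. The 4 transmembrane genes had longest runs of 40 to 56 triplets. The first 54-base exon that holds whole triplets is shown for 3 chains whose RNA was far lower with overexpression (Col1a1, Col1a2 and Col6a1), for 1 that was lower by less (Col7a1) and for 2 collagen IV chains (Col4a1 and Col4a5). Capitals mark the glycine codons.
Col1a1 (chr11:94939904-94939957, plus strand): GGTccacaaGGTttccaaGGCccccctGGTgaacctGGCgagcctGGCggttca
Col1a2 (chr6:4515481-4515534, plus strand): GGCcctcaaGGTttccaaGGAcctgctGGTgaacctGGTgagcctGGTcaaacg
Col6a1 (chr10:76719623-76719676, minus strand): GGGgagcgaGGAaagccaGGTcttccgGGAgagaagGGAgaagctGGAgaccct
Col7a1 (chr9:108967172-108967225, plus strand): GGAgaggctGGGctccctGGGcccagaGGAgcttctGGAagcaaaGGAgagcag
Col4a1 (chr8:11245211-11245264, minus strand): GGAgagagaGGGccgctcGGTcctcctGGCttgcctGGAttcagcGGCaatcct
Col4a5 (chrX:141575988-141576041, plus strand): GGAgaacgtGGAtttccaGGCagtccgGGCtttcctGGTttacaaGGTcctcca
Each exon holds 6 triplets. The exons of Col1a1 and Col1a2, which encode the chains of collagen I, matched at 42 of 54 positions. Those of Col4a1 and Col4a5, which were not chosen as counterparts, matched at 31 of 54. Col17a1 had no inner coding exon made only of whole triplets, although 60.8% of its inner coding exons had a length that is a multiple of 9.

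The libraries held 31247976 to 38543221 counts over mouse genes. Sox2 had 25 to 49 counts in the knockout libraries and 2566 to 4095 in the overexpression libraries, which matched the labels. The tumour line is epithelial, and all 20 epithelium markers were detected. Their summed level was 6171 to 8454 CPM (counts scaled to a common library size) with knockout and 14852 to 18974 CPM with overexpression, and 17 of 20 were higher with overexpression. Of 10 fibroblast markers, 9 were lower with overexpression and Twist2 did not pass the test, and their summed level was 2280 to 4568 CPM with knockout against 82.0 to 145 CPM with overexpression. Fbln1 and Twist2 held most of that overexpression level, with means of 59.3 and 40.3 CPM. Mural cell markers summed to 161 to 236 CPM against 80.7 to 121 CPM, with 5 of 8 lower and 1, Notch3, higher. Notch3 and Mcam, which did not pass, held most of the mural level with overexpression (means of 65.6 and 32.3 CPM). Endothelial markers summed to 33.4 to 122 CPM against 13.3 to 20.1 CPM, with 6 of 8 lower, and white blood cell markers to 22.1 to 111 CPM against 8.07 to 23.0 CPM, with 3 of 8 lower. Tek (mean 13.8 CPM) held most of the endothelial level with overexpression. Csf1r (11.6 CPM) and Ly6g (4.74 CPM) held most of the white blood cell level. Tek, Csf1r and Ly6g did not pass the test. Chondrocyte, Schwann cell and adipocyte markers reached at most 393, 192 and 7.07 CPM in sum. Sox9 (mean 352 CPM with overexpression) held nearly all of the chondrocyte level and did not pass the test. Erbb3 (139 CPM with overexpression) held most of the Schwann cell level, and Fabp4 (3.91 CPM with knockout) most of the adipocyte level. Of the 8 genes in each of these lists, 3, 0 and 1 were lower, and 0, 1 and 0 were higher. Matn1, Cnmd, Foxd3, Lep and Pck1 had no count with overexpression. Matn1 and Lep had no count with knockout either. Adipoq and Cidec had no count with knockout and at most 2 in any overexpression library. The part of these other cell types in the collagen results was not tested. In bulk RNA, fewer cells of a type and less RNA per cell cannot be told apart. Of all tested genes, 18.0% were lower with overexpression and 13.6% higher, which is the background to the marker counts.

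Collagen RNA filled 7.77%, 9.66% and 9.36% of the mouse gene counts in knockout replicates 1, 2 and 3, and 0.370%, 0.443% and 0.534% in overexpression replicates 1, 2 and 3. All knockout libraries lay far above all overexpression libraries. The means were 8.93% ± 1.02 and 0.449% ± 0.0822 (SD, n = 3 each), and the two-sided exact permutation p was 0.10, the smallest that 3 against 3 allows. Of the 44 members, 39 passed the filter on low counts. Col4a6, Col9a1, Col9a2, Col10a1 and Col19a1 did not, and had at most 26 counts in any library. In the edgeR quasi-likelihood test, 27 members were lower with overexpression at an adjusted p under 0.05 (69.2% of those tested, against 18.0% of all 18504 tested genes) and 3 were higher (7.69%, against 13.6%). The remaining 9 tested members did not pass. In either direction 76.9% were called, against 31.6% of all tested genes, 18 members (46.2%) fell by more than 5 on the log2 scale, against 5.32% of all tested genes, and the libraries of the groups did not overlap for 34 members (87.2%, against 50.9%). The median log2 fold change was -4.65, or -4.52 with the 4 tested members at the count floor set to their bounds, beside -0.016 for all tested genes. A gene can pass the filter through 1 group alone, so these figures describe the 39 genes and are not evidence about the family. When libraries were instead scaled to the epithelium markers, which moved the median of all tested genes to -1.25, 34 members were lower and 1 was higher. Under that scaling 14829 of all 18504 tested genes passed the threshold in either direction. The background to the 34 lower members is thus far larger than the 18.0% above. The count of higher members was 5 with the Wald test of DESeq2 and 1 without overexpression replicate 2.

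**Figure D1:**
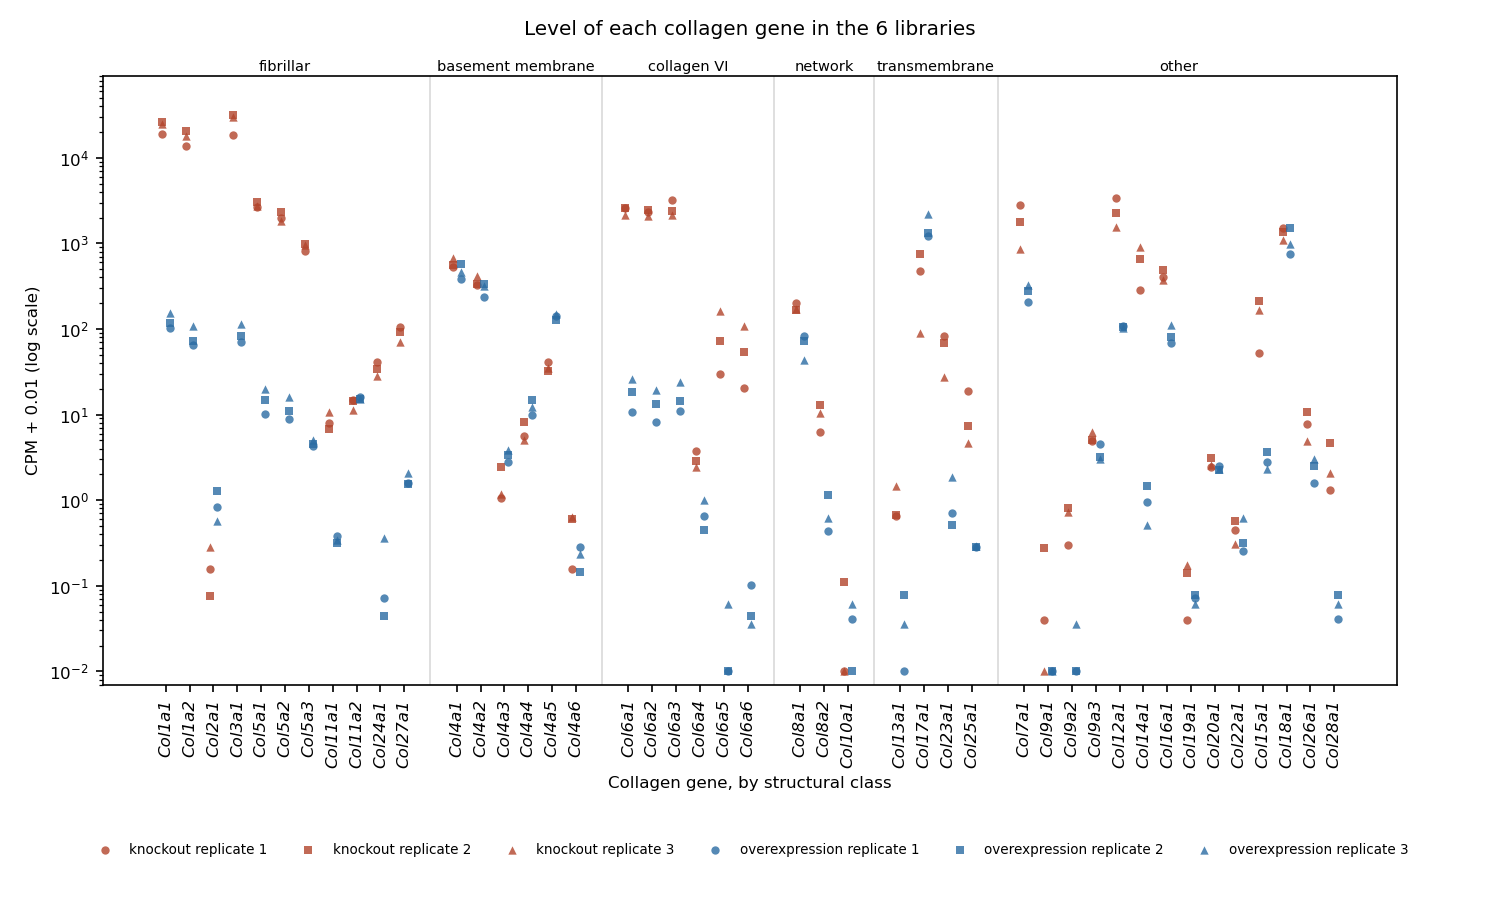
Level of each of the 44 collagen genes in CPM plus 0.01 (logarithmic vertical axis) in the 6 libraries, by structural class (horizontal axis); each symbol is 1 library, red for knockout and blue for overexpression. Col1a1 lies between 18758 and 26208 CPM with knockout and between 103 and 153 CPM with overexpression, other fibrillar genes range down to Col2a1 at under 1 CPM with knockout, and Col4a1 and Col18a1 overlap between groups.

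**Figure D2:**
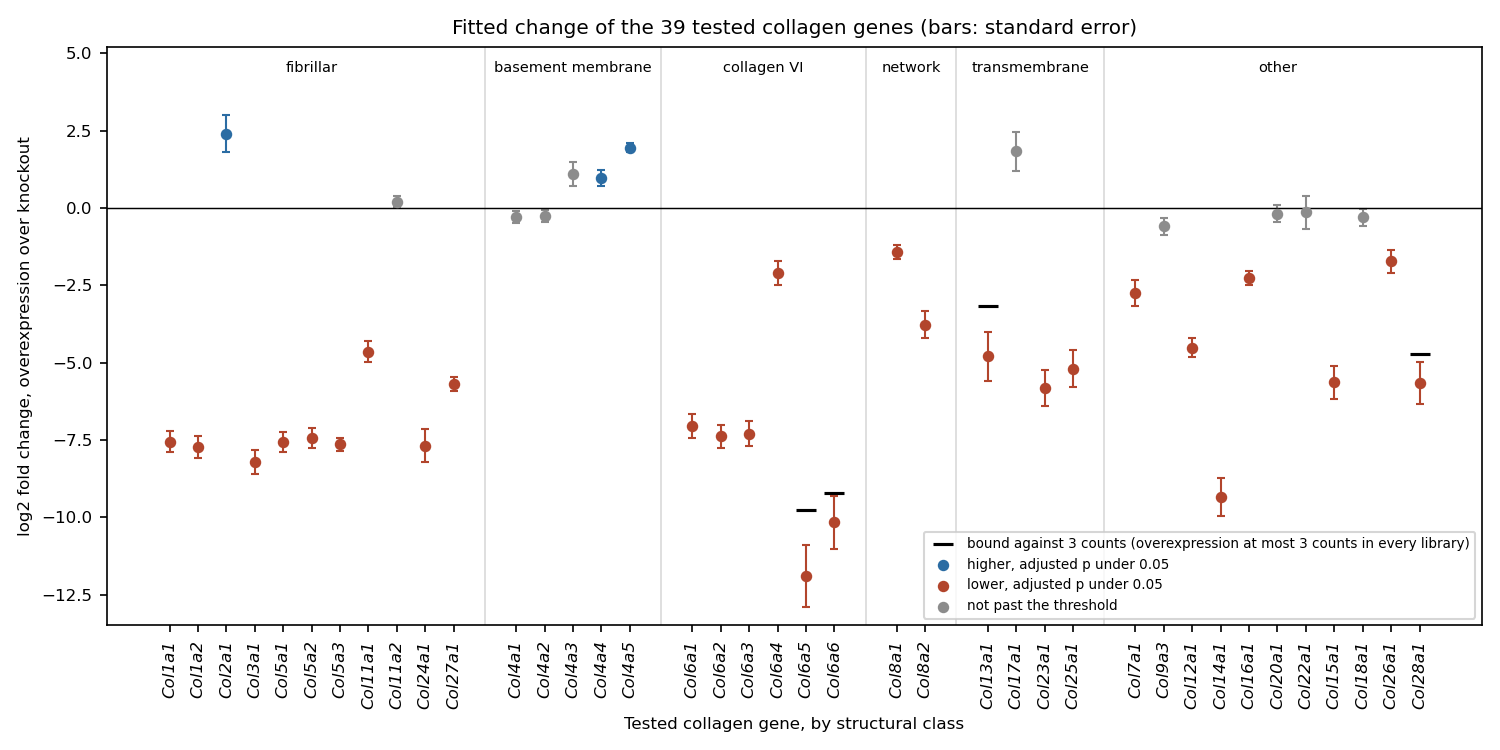
log2 fold change, overexpression over knockout (vertical axis), of the 39 tested collagen genes by class (horizontal axis), with the standard error as bars; blue is higher and red lower at an adjusted p under 0.05, grey did not pass, and black dashes are bounds for genes with at most 3 counts in every overexpression library. Collagens I, III, V and VI lie between -7.06 and -8.22 apart from Col6a4, Col6a5 and Col6a6, and the basement membrane genes lie between -0.31 and 1.94.

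The make-up of the collagen RNA differed between the groups. Levels of different genes were put on a common scale by dividing CPM by transcript length in kilobases. On this scale fibrillar genes held 77.6%, 84.5% and 86.3% of the collagen level in knockout replicates 1, 2 and 3, and 8.33%, 6.87% and 8.61% in overexpression replicates 1, 2 and 3. Collagen VI genes fell from 8.08% to 12.2% of the level to 1.00% to 1.57%. With overexpression, Col17a1 alone held 29.3% to 44.5%, Col18a1 19.99% to 33.8%, Col4a1 7.98% to 10.7% and Col4a2 5.62% to 6.41% of the per-kilobase level. With knockout these 4 genes held at most 0.776%, 2.14%, 0.640% and 0.401%. These are shares of a total that was itself lower with overexpression.

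**Figure D3:**
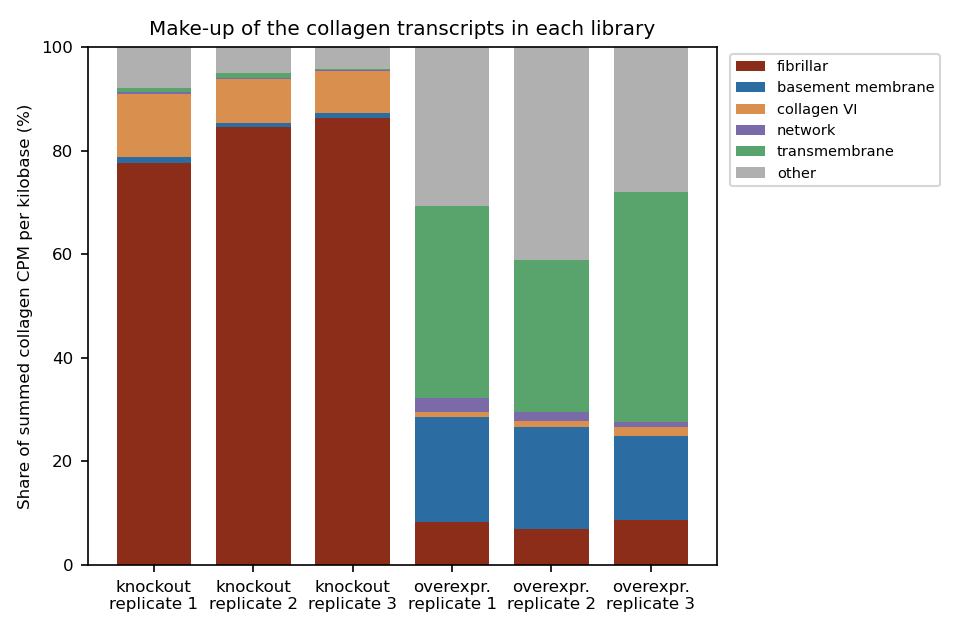
Share of the summed collagen CPM per kilobase (vertical axis, percent) held by each structural class in each of the 6 libraries (horizontal axis), as stacked bars. Fibrillar genes take 77.6% to 86.3% of the knockout bars and 6.87% to 8.61% of the overexpression bars, where transmembrane genes take 29.4% to 44.5%.

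Fibrillar collagens were the most abundant members with knockout, and 9 of the 11 were lower with overexpression, 1 was higher and 1 did not pass. Col3a1, the chain of collagen III, had 18702, 31278 and 30212 CPM in knockout replicates 1, 2 and 3 and 70.5, 83.0 and 115 CPM in overexpression replicates 1, 2 and 3. Col1a1, the main chain of collagen I, had 18758, 26208 and 24958 CPM with knockout and 103, 116 and 153 CPM with overexpression. Col1a2, its partner chain, had 13877, 20606 and 18023 CPM and 65.5, 72.4 and 108 CPM. For these 3 genes knockout replicate 1 was the lowest knockout library and overexpression replicate 3 the highest overexpression library, and the groups were more than 100-fold apart. Their log2 fold changes were -8.22 (SE 0.39, adjusted p = 2.09e-06), -7.55 (SE 0.32, adjusted p = 1.56e-06) and -7.74 (SE 0.36, adjusted p = 1.95e-06). The exons of Col3a1 overlap those of a predicted gene on the same strand.

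Collagen V, which sits inside collagen I fibres and limits their width, was lower to a similar extent. Col5a1 had 2646, 3041 and 2767 CPM with knockout and 10.04, 14.6 and 19.9 CPM with overexpression, a log2 fold change of -7.57 (SE 0.33). Col5a2 had 1997, 2353 and 1849 CPM against 8.91, 10.9 and 15.9 CPM, a log2 fold change of -7.44 (SE 0.31). Col5a3 fell from 922 ± 98.9 to 4.61 ± 0.432 CPM (SD, n = 3 each), and its overexpression libraries were the most alike of the 3 genes. The log2 fold changes of Col1a1, Col1a2, Col5a1, Col5a2 and Col5a3 spanned -7.44 to -7.74, with standard errors of 0.22 to 0.36. The exons of Col5a1 overlap those of 2 genes on the other strand, and the strand setting of the counts is not known.

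The minor fibrillar genes did not move as a block. Col27a1, a fibrillar collagen of cartilage, fell from 89.2 ± 16.7 to 1.72 ± 0.287 CPM (SD, n = 3 each; log2 fold change -5.69), and Col11a1, a partner of collagen V and of cartilage collagen II, from 8.44 ± 1.97 to 0.333 ± 0.0311 CPM (-4.65). Col24a1 fell from 34.5 ± 6.31 to 0.150 ± 0.178 CPM, and 14 of its 17 overexpression counts were in replicate 3. With that library left out, the log2 fold change was -9.36 in place of -7.69, at an overexpression mean of 0.0474 CPM. Col11a2, the second chain of collagen XI, had 14.7, 14.4 and 11.2 CPM with knockout and 16.1, 15.3 and 15.02 CPM with overexpression, a log2 fold change of 0.20 (SE 0.18, adjusted p = 0.415). It became lower, by 1.01 (adjusted p = 0.00234), only when libraries were scaled to the epithelium markers. Col2a1, the cartilage collagen, was higher at a very low level, with 5, 2 and 10 counts with knockout and 27, 38 and 22 with overexpression (log2 fold change 2.39, SE 0.59, adjusted p = 0.0154). That call did not hold without knockout replicate 2 (adjusted p = 0.0519), without overexpression replicate 2 (0.0673) or with scaling to the epithelium markers (0.124), and without knockout replicate 3 the log2 fold change was 2.99.

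Collagen VI has 3 classical chains, and all 6 genes of the type were lower with overexpression. Col6a1 had 2611, 2621 and 2140 CPM with knockout and 10.8, 18.4 and 26.0 CPM with overexpression. Col6a2 had 2328, 2431 and 2083 CPM and 8.24, 13.3 and 19.3 CPM. Col6a3, the longest chain, had 3232, 2407 and 2140 CPM and 10.96, 14.3 and 24.1 CPM. In these 3 genes replicate 1 was the lowest and replicate 3 the highest overexpression library, and no library of a group came near the other group. Their log2 fold changes were -7.06 (SE 0.38), -7.39 (SE 0.37) and -7.30 (SE 0.39), with adjusted p-values of 3.47e-06, 2.52e-06 and 3.46e-06.

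Col6a5 and Col6a6, chains that can stand in for Col6a3, were spread more widely. Col6a5 had 30.1, 72.6 and 164 CPM with knockout and 0, 0 and 2 counts with overexpression. Col6a6 had 20.5, 53.6 and 108 CPM with knockout and 3, 1 and 1 counts with overexpression. Knockout replicate 3 was more than 5-fold above replicate 1 for both. Against a floor of 3 counts in the shallowest overexpression library, Col6a5 was at least 877-fold and Col6a6 at least 598-fold lower. Without knockout replicate 3 the knockout means went from 89.0 to 51.4 CPM and from 60.7 to 37.0 CPM. Col6a4, whose exons overlap those of genes on the other strand, fell from 3.00 ± 0.664 to 0.689 ± 0.277 CPM (SD, n = 3 each; log2 fold change -2.11, adjusted p = 0.00412). Exons of Col6a6 also overlap a gene on the other strand.

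Basement membrane collagen IV differed from the fibrillar and collagen VI genes in that none of its 5 tested genes was lower. Col4a1, which with Col4a2 forms the collagen IV of nearly all basement membranes, had 529, 557 and 677 CPM with knockout and 388, 573 and 462 CPM with overexpression. Col4a2 had 326, 333 and 413 CPM and 238, 334 and 317 CPM. The groups overlapped for both genes, with knockout replicate 3 highest. Their log2 fold changes were -0.31 (SE 0.19, adjusted p = 0.261) and -0.27 (SE 0.19, adjusted p = 0.301). Scaled to the epithelium markers they were lower by 1.58 and 1.53 (adjusted p = 0.000252 and 0.000287). The first exons of the 2 genes overlap by 22 bases on opposite strands in the annotation.

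The chains of the more restricted collagen IV networks were at lower levels. Col4a5, the X-linked chain found in skin and kidney basement membranes, rose in all 3 libraries. It had 40.8, 32.3 and 35.5 CPM with knockout and 142, 127 and 148 CPM with overexpression, a log2 fold change of 1.94 (SE 0.15, adjusted p = 2.7e-05). The groups did not overlap, and Col4a5 stayed higher past the threshold in all 6 fits that left out 1 library and under the epithelium scaling, where it was the sole higher member (log2 fold change 0.72, adjusted p = 0.00621). Col4a6, which pairs with Col4a5 in skin and lies head to head with it, had 5, 18 and 23 counts with knockout and 9, 4 and 9 with overexpression, too few for the test. The start sites of Col4a5 and Col4a6 are 1308 bases apart.

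Col4a3 and Col4a4, chains of the kidney glomerular network, start only 71 bases apart on opposite strands of chromosome 1. That interval is shown because it separates the starts of 2 members with fold changes of similar size. It is given 5′ to 3′ on the minus strand, towards Col4a4, as RefSeq holds it on GRCm38.p6, with no capitals since none of the motifs searched occurs in it.
Col4a3 to Col4a4 interval (chr1:82586850-82586920, minus strand): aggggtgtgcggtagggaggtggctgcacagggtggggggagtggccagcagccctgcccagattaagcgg
Col4a4 had 5.57, 8.27 and 5.07 CPM with knockout and 9.86, 14.95 and 12.2 CPM with overexpression. Col4a3 had 1.06, 2.45 and 1.18 CPM and 2.78, 3.38 and 3.82 CPM. The groups did not overlap for either gene, and knockout replicate 2 was the highest knockout library for both. The log2 fold change was 0.97 for Col4a4 (SE 0.26, adjusted p = 0.0234) and 1.10 for Col4a3 (SE 0.39, adjusted p = 0.0632). The call of Col4a4 did not hold without knockout replicate 1 (adjusted p = 0.0672), knockout replicate 3 (0.0661), overexpression replicate 2 (0.0609) or overexpression replicate 3 (0.0574). Col4a3 passed without knockout replicate 2 (log2 fold change 1.58, adjusted p = 0.0198), with DESeq2 (0.0300) and with the replicate number as a block (0.0470). Scaled to the epithelium markers, both fold changes were below 0 (-0.27 and -0.15). Exons of Col4a3 overlap a gene on the other strand.

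Of the 4 transmembrane collagens, 3 were lower with overexpression and Col17a1 did not pass the test. Col17a1, the hemidesmosome collagen of basal keratinocytes, had the highest mean CPM of all members with overexpression, although Col18a1 exceeded it in overexpression replicate 2. It had 474, 759 and 90.01 CPM in knockout replicates 1, 2 and 3 and 1214, 1324 and 2177 CPM in overexpression replicates 1, 2 and 3. All overexpression libraries lay above all knockout libraries, but the knockout libraries spread 8.43-fold, with replicate 3 lowest. The log2 fold change was 1.83 (SE 0.63) and did not pass the threshold (edgeR, adjusted p = 0.0541). It passed without knockout replicate 3 (1.36, adjusted p = 0.0187), without knockout replicate 2 (2.48, adjusted p = 0.0336), with DESeq2 (0.0308), with the replicate block (0.0352) and with no filter on low counts (0.000121). The edgeR fit with no filter also gave Col1a1 a far smaller adjusted p (2.23e-20, against 1.56e-06). Its values are therefore not on the scale of the filtered fits. The knockout mean was 441 CPM with all libraries and 282 CPM without replicate 2. Scaled to the epithelium markers the log2 fold change was 0.67 (adjusted p = 0.255).

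The other 3 transmembrane genes fell. Col23a1 had 83.9, 67.9 and 27.3 CPM with knockout and 0.702, 0.507 and 1.85 CPM with overexpression (log2 fold change -5.83, adjusted p = 0.000122). Without overexpression replicate 3 its overexpression mean was 0.605 in place of 1.02 CPM and its log2 fold change -6.59. Col25a1 had 18.8, 7.27 and 4.605 CPM with knockout and 0.275, 0.271 and 0.278 CPM with overexpression (-5.20, adjusted p = 0.000249). Leaving out replicate 1 took its knockout mean from 10.2 to 5.94 CPM and the log2 fold change to -4.41. Both genes were highest in knockout replicate 1 and lowest in replicate 3. Col13a1, a collagen of cell contacts and neuromuscular junctions, had 20 to 53 counts with knockout and at most 2 with overexpression, at least 9.06-fold lower.

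Collagen VII forms the anchoring fibrils below the hemidesmosome and is made by keratinocytes and by fibroblasts. Col7a1 had 2811, 1790 and 854 CPM with knockout and 206, 278 and 330 CPM with overexpression. The groups did not overlap, the lowest knockout library being replicate 3. The log2 fold change was -2.75 (SE 0.41, adjusted p = 0.00117) and ranged from -3.08 to -2.28 over the fits without 1 library. Col7a1 was thus lower while Col17a1, its neighbour in the same adhesion structure, was not. Their fold changes lay on opposite sides of 0, and the difference between the 2 genes was not tested.

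Fibril-associated collagens coat or link fibres, and 3 of their 6 tested genes were lower. Col12a1, which decorates collagen I fibres, had 3421, 2270 and 1540 CPM with knockout and 107, 105 and 103 CPM with overexpression. Its overexpression libraries were nearly equal, and its knockout libraries spread 2.22-fold. The log2 fold change was -4.52 (SE 0.32, adjusted p = 1.33e-05). Col14a1, a related collagen of mature dermis, had 289, 661 and 915 CPM with knockout and 0.946, 1.45 and 0.506 CPM with overexpression, a log2 fold change of -9.35 (SE 0.60, adjusted p = 8.7e-06). Col12a1 was highest in knockout replicate 1 and Col14a1 in knockout replicate 3. Col16a1, which both fibroblasts and keratinocytes make, had 400, 492 and 376 CPM with knockout and 68.4, 80.0 and 113 CPM with overexpression, a smaller change of -2.28 (SE 0.22, adjusted p = 0.000103).

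The cartilage-type and rarer members of this type were near the limit of detection or did not pass. Col9a3 had 5.37 ± 0.767 CPM with knockout and 3.56 ± 0.809 CPM with overexpression (SD, n = 3 each; adjusted p = 0.136), and Col20a1 2.69 ± 0.349 and 2.36 ± 0.127 CPM (adjusted p = 0.641). Col22a1 had 11 to 17 counts with knockout and 8 to 24 with overexpression, and its fold change had no steady sign. Col9a3, Col20a1 and Col22a1 were lower past the threshold only under the epithelium scaling. Col9a2 had 10, 24 and 26 counts with knockout and 0, 0 and 1 with overexpression, without a test. Col9a1 reached at most 8 counts, and Col19a1 at most 6.

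The multiplexins Col15a1 and Col18a1, basement membrane collagens with heparan or chondroitin sulphate chains, differed from each other in size of change. Col18a1, the source of endostatin, had 1526, 1372 and 1105 CPM with knockout and 743, 1530 and 979 CPM with overexpression, and the groups overlapped. Its log2 fold change was -0.30 (SE 0.27, adjusted p = 0.437), and -1.53 (adjusted p = 0.0003) under the epithelium scaling. Col15a1 had 52.8, 213 and 168 CPM with knockout and 2.75, 3.69 and 2.30 CPM with overexpression, a log2 fold change of -5.64 (SE 0.53, adjusted p = 8.01e-05). Its lowest knockout library was replicate 1, as for Col14a1, Col6a5 and Col6a6. Exons of Col15a1 overlap a gene on the other strand.

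Network collagens form hexagonal lattices. Col8a1, a collagen of vessel walls and of the membrane behind the cornea, had 199, 167 and 171 CPM with knockout and 82.8, 73.3 and 43.0 CPM with overexpression, a log2 fold change of -1.43 (SE 0.24, adjusted p = 0.00212). Its change was the smallest of the 27 members that fell. Col8a2 fell from 9.92 ± 3.39 to 0.728 ± 0.376 CPM (SD, n = 3 each; -3.77, adjusted p = 0.000309). Col10a1, the collagen of hypertrophic cartilage, had at most 3 counts in any library. Of the 2 remaining genes, Col26a1 fell from 7.77 ± 2.95 to 2.35 ± 0.707 CPM (-1.72, adjusted p = 0.00789). Col28a1 had 44, 141 and 76 counts with knockout and at most 2 with overexpression, at least 26.4-fold lower. Its knockout mean was 2.68 CPM, and 1.69 CPM without replicate 2.

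Chains that assemble into 1 protein were compared as ratios of counts per transcript length within each library. Col1a1 to Col1a2 was 1.22, 1.15 and 1.25 with knockout and 1.42, 1.44 and 1.28 with overexpression. Col6a1 to Col6a2 was 1.08, 1.04 and 0.990 with knockout and 1.26, 1.34 and 1.30 with overexpression. For both pairs the overexpression ratios were all above the knockout ratios, and the exact two-sided permutation p was 0.10, the smallest possible, or 0.25 after adjustment over the 5 ratios tested. Col4a1 to Col4a2 was 1.58, 1.63 and 1.60 with knockout and 1.59, 1.67 and 1.42 with overexpression (exact p = 0.80, adjusted 0.80). Col5a1 to Col5a2 had geometric means of 1.08 and 0.975 (exact p = 0.30, adjusted 0.50), and Col6a3 to Col6a1 of 0.423 and 0.365 (exact p = 0.50, adjusted 0.625). Chain ratios thus moved by at most 0.32 on the log2 scale between groups whose collagen I and VI levels differed by more than 7. Col4a5 to Col4a6 could not be given because Col4a6 was under 10 counts in 4 of the libraries.

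The knockout libraries also differed among themselves in their collagens. Among the 27 tested members with a mean of at least 10 CPM with knockout, 16 had knockout libraries within 1.5-fold of each other, Col1a1, Col5a1, Col5a2, Col5a3, Col6a1 and Col6a2 among them. Knockout replicate 3 exceeded replicate 1 by more than 2-fold for 4 genes: Col6a5, Col6a6, Col15a1 and Col14a1. Replicate 1 exceeded replicate 3 by more than 2-fold for 5: Col17a1, Col25a1, Col7a1, Col23a1 and Col12a1. In knockout replicates 1, 2 and 3 the 10 fibroblast markers summed to 2280, 4568 and 4314 CPM, the 8 endothelial markers to 33.4, 53.3 and 122 CPM and the 8 white blood cell markers to 22.1, 38.7 and 111 CPM. Replicate 1 was the lowest of the 3 in each of these sums, as it was for Col6a5, Col6a6, Col14a1 and Col15a1. Adipocyte markers were also lowest there (3.43, 3.84 and 7.07 CPM). In contrast, replicate 1 was highest for mural cell (236, 161 and 187 CPM) and Schwann cell markers (111, 71.4 and 98.8 CPM). Erbb3 (88.3, 42.8 and 69.2 CPM) held most of the Schwann cell sum and was the only gene of that list highest in replicate 1. Within the mural list, Cspg4 and Kcnj8 were highest in replicate 2, Abcc9 and Myh11 in replicate 3, and the rest in replicate 1. Replicate 1 was highest too for chondrocyte (292, 290 and 185 CPM) and epithelium markers (8454, 6726 and 6171 CPM). Sox9 (289, 288 and 180 CPM) held nearly all of the chondrocyte sum. In that list Matn3, Comp, Hapln1 and Chad were highest in replicate 3, and Acan and Cnmd in replicate 2. Matn1 had no count. Within the fibroblast list, Pdgfra, Pdgfrb and Twist2 were highest in replicate 1. Hemidesmosome genes summed to 5197, 5774 and 2995 CPM, lowest in replicate 3, as was Col17a1. The part of these lists in the spread of the collagens was not tested.

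**Figure D4:**
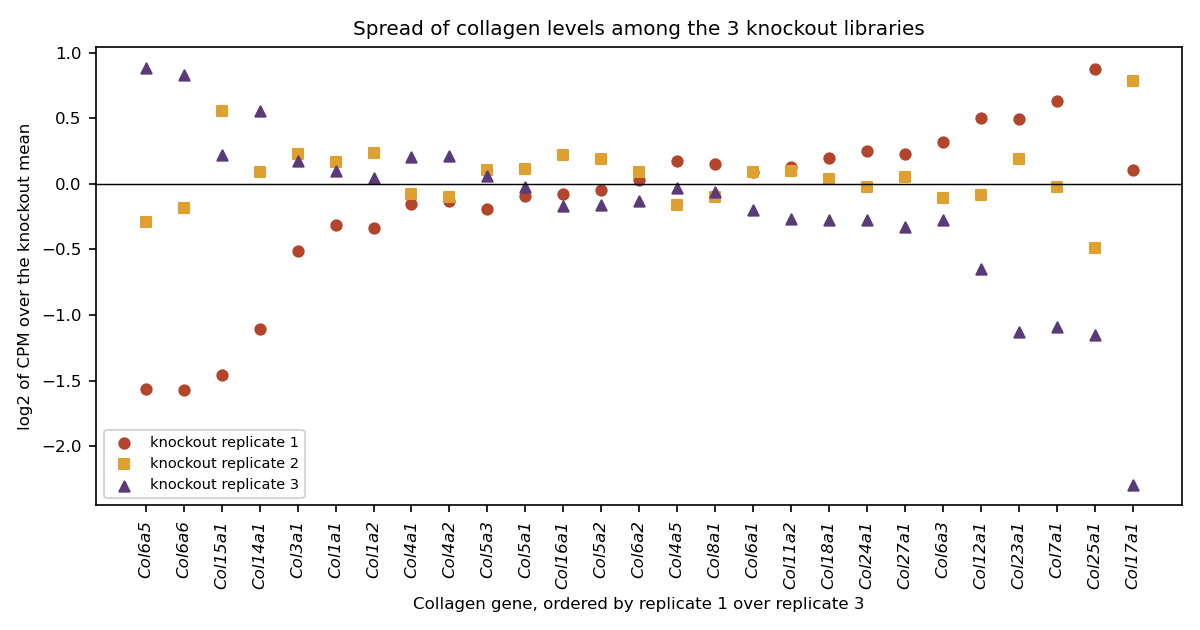
log2 of the CPM in each knockout library over the knockout mean (vertical axis) for the 27 tested collagen genes with at least 10 CPM on average, ordered by replicate 1 over replicate 3 (horizontal axis); each symbol is 1 library. Col6a5 and Col6a6 are highest in replicate 3 at the left end, and Col17a1, with 90.01 CPM in replicate 3 against 759 CPM in replicate 2, is at the right end.

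Genes that fold, cut, bind and degrade collagen were read from the same fit as lists. The background to the count of each list is the 18.0% of all tested genes that were lower and the 13.6% that were higher. Of 20 genes for folding and hydroxylation in the endoplasmic reticulum, 10 were lower, 0 higher and 10 did not pass, with a median log2 fold change of -0.87 beside -0.016 for all tested genes. Serpinh1, the collagen chaperone HSP47, fell from 1122 ± 236 to 9.13 ± 2.41 CPM (SD, n = 3 each; -6.94), and P4ha3, a prolyl hydroxylase subunit, from 76.6 ± 13.2 to 0.562 ± 0.382 CPM (-7.10). Colgalt2, which adds galactose to hydroxylysine, had 28, 38 and 56 counts with knockout and at most 1 with overexpression, at least 11.9-fold lower. P4hb, Ppib, Plod3 and Colgalt1, which serve many secreted proteins or all collagens, had log2 fold changes between -0.36 and -0.095 and did not pass. They, and Loxl4, Ddr1, Lama5, Agrn and Notch3 elsewhere in the text, were chosen after their values were seen. So were Mcam, Tek, Csf1r, Ly6g, Fbln1, Twist2, Pdgfra and Pdgfrb. The same holds for Sox9, Erbb3, Fabp4, Cspg4, Kcnj8, Abcc9, Myh11, Matn3, Comp, Hapln1, Chad and Acan. The count of higher genes in this list was 1 at an unadjusted p under 0.05 and 1 with DESeq2.

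Of 13 tested genes for procollagen cleavage and cross-linking, 12 were lower and 1 higher, with a median of -4.11. Adamts2, which removes the amino-terminal propeptide of collagens I and III, fell from 479 ± 78.4 to 2.18 ± 0.826 CPM (SD, n = 3 each; -7.77). The lysyl oxidases Lox, Loxl1 and Loxl2, which start the cross-links between collagen molecules, had log2 fold changes of -7.30, -7.18 and -6.66. Loxl4 was the gene that rose (1.77, adjusted p = 0.000496). The exons of Lox and Loxl2 overlap genes on the other strand.

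Of 11 tested collagen receptors, 6 were lower and 1 higher, with a median of -1.02. Itga11, the integrin subunit of fibroblasts that binds collagen I, fell from 138 ± 13.4 to 0.423 ± 0.204 CPM (SD, n = 3 each; -8.30). Mrc2, a receptor that takes up collagen fragments, had -6.88, and Ddr2, a receptor kinase for fibrillar collagen, -6.36. Ddr1, its epithelial counterpart, rose by 1.43 (adjusted p = 0.000744). Of 10 tested genes for collagen degradation and its inhibitors, 9 were lower and 0 higher in the edgeR test, 0 higher at an unadjusted p under 0.05 and 0 higher with DESeq2, with a median of -4.25. The gelatinase Mmp2, the stromelysin Mmp3 and the lysosomal collagenase Ctsk had log2 fold changes of -7.56, -9.68 and -7.52.

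Of 8 basement membrane partners of collagen IV, 6 were lower and 2 higher, with a median of -1.94. Nid1, which bridges collagen IV and laminin, fell from 690 ± 194 to 2.48 ± 0.853 CPM (-8.10), and the related Nid2 had 60.6 ± 13.8 CPM with knockout and 0.173 ± 0.138 CPM with overexpression (SD, n = 3 each; -8.34), in libraries where Col4a1 and Col4a2 did not pass. Sparc, a collagen-binding protein, had -3.68. Lama5 and Agrn were the genes that rose (1.01 and 0.93). Of 10 hemidesmosome and anchoring partners of Col17a1 and Col7a1, 2 were higher and 0 lower, with a median of 0.42. Lamb3, a laminin chain of that structure, rose by 1.46 on the log2 scale (adjusted p = 0.00356) and Itgb4, the hemidesmosome integrin, by 0.83 (adjusted p = 0.0378). At an unadjusted p under 0.05, 4 were higher and 0 lower. The adjusted count, 2 of 10 higher, is close to the 13.6% of all tested genes that were higher. In this list the count of higher genes was 1 without knockout replicate 1, knockout replicate 3 or overexpression replicate 3. Scaled to the epithelium markers, the higher counts of the receptor, basement membrane partner and hemidesmosome lists were 0. The hemidesmosome list then had 6 lower genes, and Loxl4 remained the 1 higher gene of its list. Under that scaling 14829 of all 18504 tested genes passed in either direction, so 13.6% is not the background to these counts.

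The non-member genes whose pattern over the 6 libraries was most like that of Col1a1, by the mean squared distance of centred log2 CPM, were Sfrp2 (0.0197), Nid1 (0.0205), Adamts2 (0.0238), Lum (0.0289) and Mmp2 (0.0344). Sfrp2 is a secreted Wnt modulator and Lum a proteoglycan of collagen fibres, and both are fibroblast products. The genes most like Col17a1 were Krt42 (0.109), Krt5 (0.121), Gemin4 (0.138), Sostdc1 (0.138) and Serpinb10 (0.138). Krt5, the keratin of basal keratinocytes, had 698 ± 448 CPM with knockout and 1963 ± 725 CPM with overexpression (SD, n = 3 each; adjusted p = 0.0584). The distances to Col17a1 were larger than those to Col1a1, and the 6 libraries share the same 2 groups.

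Promoter sequences were in RefSeq's table (GRCm38.p6, 250 bases before to 50 after each start) for 35 of the 44 members, with 38 promoters in all. Col1a1, Col2a1, Col4a3, Col5a2, Col9a3, Col12a1, Col14a1, Col22a1 and Col26a1 were not in it, so the shares below do not cover them. Motifs were searched on both strands. GGGCGG, the GC box, was in 23 of 38 collagen promoters (60.5%) against 35.7% of all 32851 promoters. CCAAT was in 13 (34.2%, against 37.4%) and TATAAA in 5 (13.2%, against 13.6%). TGANTCA, the AP-1 site, was in the Col6a1 promoter alone (2.63%, against 7.81%). Of the cores bound by SOX proteins, ACAATG was in 1 (2.63%, against 12.6%) and ACAAAG in 5 (13.2%, against 18.7%). The 5 with ACAAAG were those of Col3a1, Col10a1, Col17a1, Col20a1 and Col28a1. Part of the upstream sequence is shown for Col3a1 and Col17a1, the members with the highest mean CPM with knockout and with overexpression, without annotated exon bases, and capitals mark TATAAA. The stretches lie 150 to 1 and 202 to 53 bases before the RefSeq start.
Col3a1 (chr1:45311388-45311537, plus strand): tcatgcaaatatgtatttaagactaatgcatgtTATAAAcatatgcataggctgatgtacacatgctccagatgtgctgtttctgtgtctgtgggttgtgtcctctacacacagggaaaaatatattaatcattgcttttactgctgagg
Col17a1 (chr19:47692095-47692244, minus strand): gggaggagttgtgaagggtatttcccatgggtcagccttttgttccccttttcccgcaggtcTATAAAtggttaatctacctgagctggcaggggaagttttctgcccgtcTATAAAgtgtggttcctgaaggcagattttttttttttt
The ACAAAG matches of both promoters lie outside these stretches. A match of letters describes the window only.

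**Figure D5:**
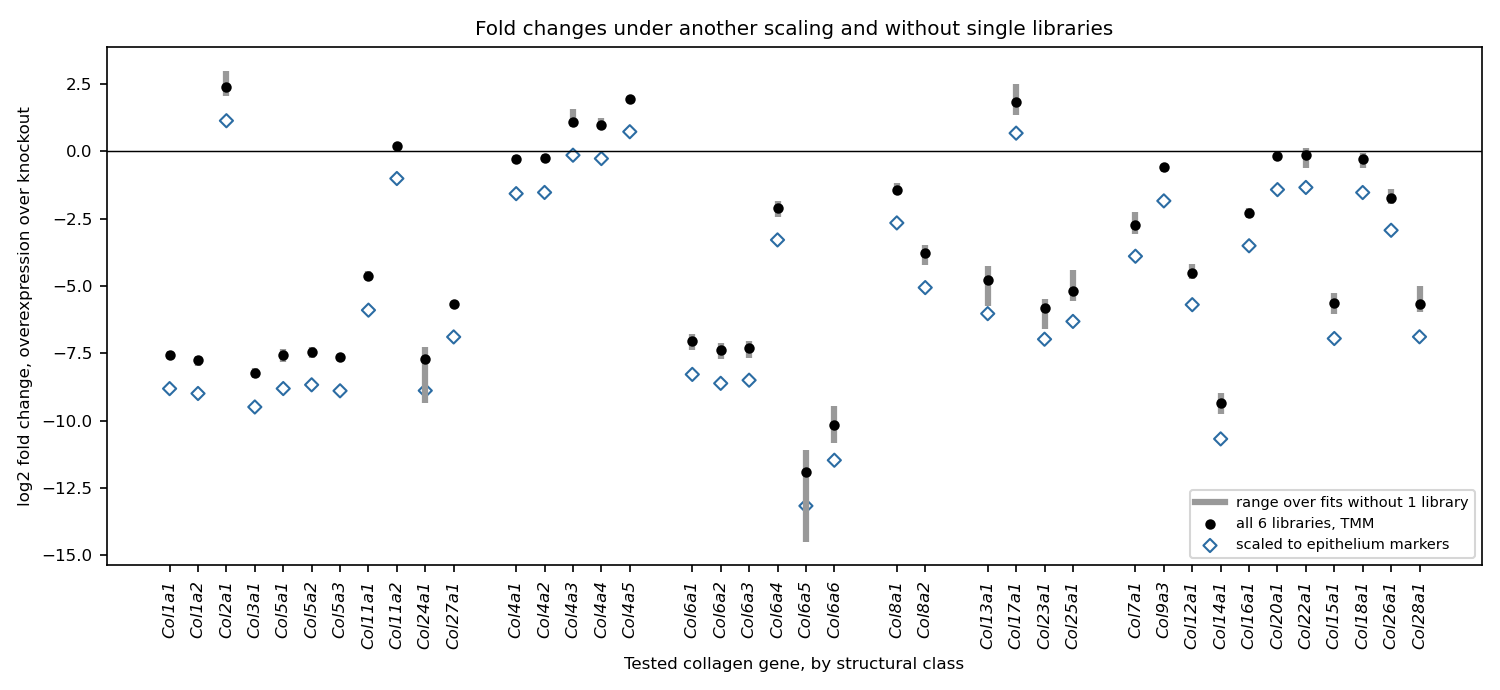
log2 fold change, overexpression over knockout (vertical axis), of the 39 tested collagen genes (horizontal axis) with all libraries and TMM (black), over the fits without 1 library (grey bars, lowest to highest) and with libraries scaled to the epithelium markers (open diamonds). The diamonds lie below the black points throughout, and Col4a5, Col2a1 and Col17a1 stay above 0 at 0.72, 1.13 and 0.67.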

How the data were processed

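RNA was sequenced from 6 PDVC57 libraries, prepared with an NEBNext kit meant for small RNA amounts, per the labels' protocols. Whole-number counts per gene were deposited by the authors, and the submitters' processing notes name kallisto 0.44.0 and the mm10 build without saying how they were used. The annotation and strand setting are not given in the sources used here. Of 55481 rows, 96 name no mouse gene (at most 2.23e-05% of counts) and were left out. Symbols came from a reference table of gene IDs (241 IDs had none), and positions and transcript lengths (of the transcript with the longest coding sequence) from GENCODE M21 on GRCm38.

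Genes passed filterByExpr (minimum count 10, total 15), counts were TMM-normalized, and groups were compared in 1 fit by edgeR 4.0.16 in R 4.3.3 (its quasi-likelihood test), with the group as the only term. P-values were adjusted by Benjamini-Hochberg over 18504 genes (threshold 0.05). The standard error is the log2 fold change over the square root of F. A fold against a group with at most 3 counts in every library is a bound against 3 counts (0.101 CPM) in its shallowest library, which covers counting error only. Alternatives were RLE and upper-quartile scaling, no filter, robust dispersion, a replicate block, DESeq2 1.42.0, scaling to the epithelium markers by their median ratio and leaving out each library. The fit was tested on simulated data. All members were accounted for. Values in every library are given for up to 4 members of each class with most CPM, every member called higher and chains in a ratio. Genes of other lists were named by the smallest p and the 3 largest changes past the threshold. The members and lists were chosen with earlier results of these data known. No sequencing batch is in the labels.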

Additional observations from a re-analysis of the deposited data

Results flagged for a closer look

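The row of the table for the reporter mCherry, which is not a mouse gene, had 8 counts in knockout replicate 3, above the 3 counts that a count of 0 allows. It had 1 count in knockout replicate 2 and 0 in the other 4 libraries.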

How the results depend on the processing

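Of 39 tested members, the direction and the side of the threshold were kept in 480 of the comparisons with 13 alternatives, and 6 changed direction. These were Col11a2, Col4a3 and Col4a4 when scaled to the epithelium markers (-1.01, -0.15 and -0.27) and Col22a1 without knockout replicate 2 (0.078), without overexpression replicate 1 (0.11) and without overexpression replicate 2 (0.0059), against -0.15 with all libraries and a range of -0.64 to 0.11 without 1 library. The log2 difference of the Col4a1 to Col4a2 ratio, -0.042, turned to 0.024 when overexpression replicate 3 was left out, within -0.094 to 0.024 over the fits without 1 library. The count of higher members, 3, was 5 with the replicate block, 5 with DESeq2, 1 with the epithelium scaling and 1 to 4 when 1 library was left out. The count of all 18504 tested genes past the threshold in either direction, 5848, was 14829 with the epithelium scaling. The count of lower members was 27 to 34 over the alternatives. Except under the epithelium scaling, where fold changes are relative to a median shifted to -1.25, the cause of these changes was not tested. Nothing states that same-numbered libraries belong together. Their deviations from the group means correlated across genes at 0.055, 0.073 and -0.048, and those of differently numbered libraries at -0.145 to 0.080. With 3 libraries per group, these values cannot tell whether same-numbered libraries share a preparation. The block changed the calls of Col4a3 and Col17a1 and no other member's.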
